A study of Mus musculus with 11 samples.

Results

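Cytosolic ribosomal proteins are the protein parts of the ribosome that translates nuclear-encoded mRNA. They were taken here as every gene symbol that begins with Rpl or Rps and goes on with the plain number of a large or small subunit protein, with or without one of the endings a, x, l or l1, plus the stalk proteins Rplp0, Rplp1 and Rplp2, and Rpsa. This gave 83 of the 24319 genes listed, 51 of the large and 32 of the small subunit, and the rule reads symbols only. A second gene similar to a main one is named by 7 symbols ending in l or l1 (Rpl3l, Rpl7l1, Rpl10l, Rpl22l1, Rpl39l, Rps27l and Rps4l), and the remaining 76 are called the core set.

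RNA was sequenced from 11 libraries of C57BL/6J mice. Leukemic cells (B-cell acute lymphoblastic leukemia, B-ALL) came from the lymph nodes of 3 mice numbered 686, 713 and 760, of genotype Ebf1+/- Pax5+/-, with 2 libraries each. The dHet proB group held 3 libraries of Ebf1+/- Pax5+/- Rag2-/- cells, grown from c-Kit positive fetal liver cells on OP9 stromal feeder cells with interleukin 7, Flt3 ligand and stem cell factor. The wt proB group held 2 libraries of Fraction BC cells sorted from bone marrow, of genotype Ebf1+/+ Pax5+/+ Rag2+/+. Ebf1 and Pax5 are transcription factors of B cell commitment, and Rag2 is part of the recombinase that joins antigen receptor gene segments. No group has wild-type Ebf1 and Pax5 together with culture or leukemia, so genotype, tissue, culture and leukemia cannot be told apart in any comparison. Whether each proB library had an animal or culture of its own is not in the labels, so the p-values speak of the spread among these libraries, and that spread may be technical. The dHet proB library called library 3 here is numbered 3 in its title and 2 in its source name.

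Each ribosome holds about equal numbers of copies of its proteins, and their mRNAs are among the most abundant of dividing cells. These mRNAs begin with a short run of pyrimidines at the 5′ end, the terminal oligopyrimidine (TOP) motif, through which mTORC1 and the protein Larp1 set their translation. Several members have roles of their own in blood cells: loss of single proteins such as Rps19 causes Diamond-Blackfan anemia, and Rpl5, Rpl11 and the 5S rRNA bind Mdm2 and so raise p53 when ribosome assembly fails.

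The sequences around the annotated starts show how far members that the results turn on have pyrimidines there. RefSeq promoter sequences (build GRCm38.p6, while the deposited values use mm9) were found for 62 of the 83 members. Each sequence below runs 5′ to 3′ on the coding strand, from 15 bases before the start, and the capitals mark, of the runs of at least 4 C or T in its 30 bases, the one nearest to the start. Rps18 is shown as a highly expressed member, Rps27 and Rps15a for their copies elsewhere in the genome, Rpl12 as a member that lay apart from the family, and Rps27l, Rpl22l1 and Rpl3l as paralogs.
Rps18, chr17:33955651-33955680, minus strand: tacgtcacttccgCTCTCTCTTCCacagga
Rps27, chr3:90213634-90213663, minus strand: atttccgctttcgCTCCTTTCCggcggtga
Rps15a, chr7:118116133-118116162, minus strand: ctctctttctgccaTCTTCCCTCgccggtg
Rpl12, chr2:32961697-32961726, plus strand: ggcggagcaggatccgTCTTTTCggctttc
Rps27l, chr9:66946071-66946100, plus strand: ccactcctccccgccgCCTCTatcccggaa
Rpl22l1, chr3:28805493-28805522, plus strand: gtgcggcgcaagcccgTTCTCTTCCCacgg
Rpl3l, chr17:24727811-24727840, plus strand: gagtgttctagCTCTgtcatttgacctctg
The run covered the annotated start in Rps18 (11 bases), Rps27 (9) and Rps15a (9). It began 1 base after the start base in Rpl22l1 (10 bases), Rpl12 (7) and Rps27l (5), and in Rpl3l it had 4 bases and ended just before the start. A pyrimidine motif on the coding strand within 25 bases of the start (CTTTCC, counted together with CTCTTT and likewise with CTTTTC, whose matches can overlap) was found in 20 of the 62 members (32.26%) and in 6.472% of the 27025 genes with a promoter sequence. Rps18 and Rpl22l1, with runs of 11 and 10 bases at or next to the start, were not among the 20. The count therefore does not give the number of members with pyrimidines at the start. The ETS-type motif CCGGAAG on either strand of the 300-base promoters was found in 40.32% of the members and 9.928% of all genes. AAGATGG, which YY1 can bind, was in 16.13% against 7.278%, and the E-box CACGTG in 9.677% against 8.093%. These matches describe letters and say nothing about binding.

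The libraries carried the B-lineage markers their labels call for. The summed level of 12 B-lineage markers, among them Cd79a and Vpreb1, was 6697 to 9888 FPKM (fragments per kilobase of transcript, scaled to the library's fragments) in B-ALL, 9113 to 11521 in dHet proB and 7721 to 8108 in wt proB, with none at 0. Ebf1 was at 151 to 212 FPKM in B-ALL, 283 to 369 in dHet proB against 297 and 542 in wt proB. Rag2 was listed at 8.57 to 12.6 FPKM in the dHet proB libraries, labelled Rag2-/-, 11.1 to 16.6 in B-ALL and 31.1 and 37.8 in wt proB. A gene total cannot show which part was deleted, and the labels do not say. Other cell types differed between the groups: 10 myeloid markers summed to 539 and 561 FPKM in wt proB, 28.6 to 262 in B-ALL and 13.8 to 51.7 in dHet proB, and 8 plasmacytoid dendritic cell markers to 2008 and 2590, 278 to 2503 and 906 to 984. Most of the latter sum was Ly6d in each library, which B progenitors also express (168 to 2196 FPKM in B-ALL). The other 7 summed to 724 to 1095 FPKM in wt proB, 109 to 314 in B-ALL and 137 to 147 in dHet proB, and Siglech, specific to these cells, was at 77.3 to 132 FPKM in wt proB, at most 1.65 in B-ALL and 0 in dHet proB. This further sum and the choice of Ly6d came after the values were seen. Of the 10 myeloid markers, none was at 0 in wt proB, 0 to 4 in B-ALL libraries and 3 to 7 in dHet proB libraries. In bulk RNA, fewer cells of a type and less RNA per cell cannot be told apart. The FPKM values keep no read count, so the depth of each library is unknown.

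Ribosomal protein mRNAs stood near the top of the expression range in each group: 19 to 30 of the 100 genes with the highest FPKM were members in B-ALL libraries, 21 to 28 in dHet proB against 22 and 13 in wt proB. The 5 highest were Rpl32, Rps18, Rps14, Rpl35 and Rps19, with means over the 8 units (3 mice and 5 proB libraries) of 2751, 2395, 1944, 1821 and 1764 FPKM. On average 11 core members exceeded 1000 FPKM and 4 were under 100. Rps18, a protein of the small subunit head, had a median of 2859 FPKM over the 6 B-ALL libraries (2690 to 3101), 3132, 2625 and 2088 in dHet proB against 1571 and 1159 in wt proB. Both wt proB values lay below every other library. At the low end of the core set stood Rpl22 with a mean of 28.3 FPKM and Rps15a with 20.8.

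The 83 members together made up 8.11% to 9.40% of the summed FPKM in the 6 B-ALL libraries. Their share was 9.44%, 8.03% and 8.32% in the dHet proB libraries, and 7.13% and 4.90% in the wt proB libraries. The B-ALL and dHet proB values overlapped, and both wt proB libraries lay below all others but far from each other. Averaged over mice or libraries, the share was 8.84% ± 0.557 (SD, n = 3) in B-ALL, 8.60% ± 0.745 (SD, n = 3) in dHet proB and 6.01% ± 1.58 (SD, n = 2) in wt proB. On the log2 scale, B-ALL exceeded wt proB by 0.58 (exact two-sided permutation p = 0.2, the smallest possible with 3 against 2). It exceeded dHet proB by 0.04 (exact permutation p = 0.9, smallest possible 0.1). The dHet proB share exceeded that of wt proB by 0.54 (exact permutation p = 0.2, again the smallest possible). None of these designs can reach 0.05.

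**Figure D1:**
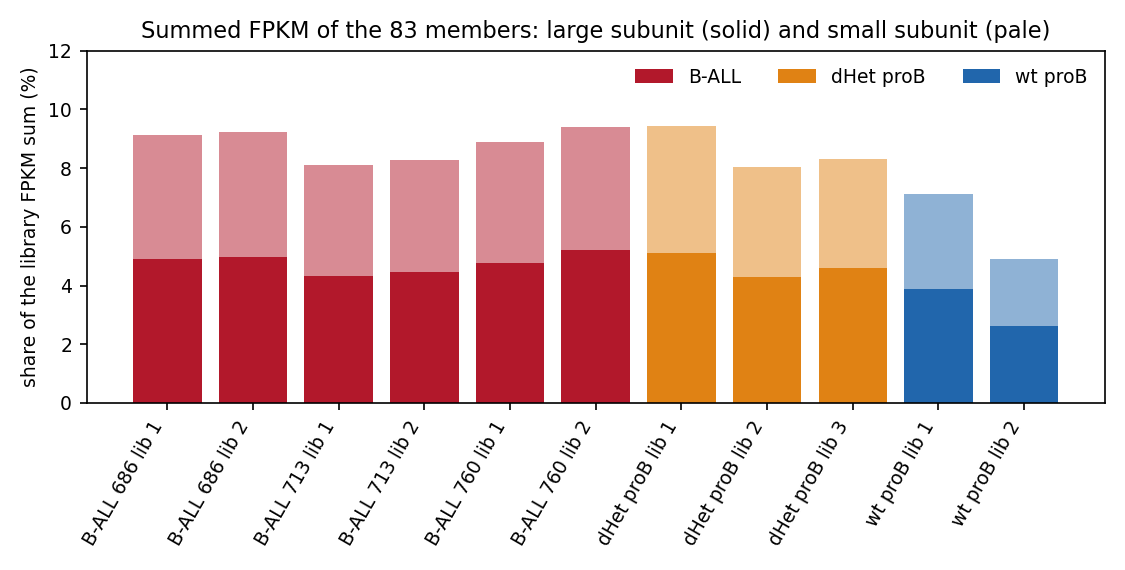
Share of the summed FPKM (%, vertical axis, from 0) taken by the 83 members in each of the 11 libraries, with large subunit members solid and small subunit members pale. Every B-ALL and dHet proB bar lies between 8.03% and 9.44%, and the wt proB bars reach 7.13% and 4.90%.

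The large subunit contributed slightly more than the small one throughout. Large subunit genes took 4.34% to 5.20% of the B-ALL sums and small subunit genes 3.77% to 4.28%. The matching ranges were 4.29% to 5.11% and 3.73% to 4.33% in dHet proB, and 2.64% to 3.88% and 2.26% to 3.25% in wt proB. Both subunits were low in the same 2 libraries.

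The middle of the core set differed between libraries of a group, most of all between the wt proB libraries. The core median was 609 and 623 FPKM for mouse 686, 531 and 548 for mouse 713, and 584 for both libraries of mouse 760. It was 490, 470 and 385 in dHet proB against 414 and 278 in wt proB. The 2 libraries of one mouse differed by a median of 0.02 to 0.04 on the log2 scale, and pairs of dHet proB libraries by 0.11 to 0.28. The wt proB libraries differed by 0.66, a 1.59-fold difference, with 75 of the 76 core members higher in library 1. This gap is close in size to the difference between the groups reported next.

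Set against the 77 mitochondrial ribosomal protein genes (symbols beginning Mrpl or Mrps), whose products serve the separate ribosome of the mitochondrion, B-ALL and wt proB overlapped, as they did not in the share. The summed cytosolic FPKM was 6.70 to 7.88 times the mitochondrial sum in B-ALL, 9.18, 6.85 and 7.97 times in dHet proB, and 6.77 and 4.49 times in wt proB. The first wt proB library lay inside the B-ALL range. Exact permutation tests of the ratio gave p = 0.4 for B-ALL against wt proB, p = 0.3 for B-ALL against dHet proB and p = 0.2 for dHet against wt proB. The smallest possible values were 0.2, 0.1 and 0.2 in turn.

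B-ALL against wt proB asks how the leukemic cells differ from Fraction BC cells sorted from wild-type bone marrow. Of the 81 members with enough signal to test, 37 were higher in B-ALL, 1 was lower and 43 were not called (limma, adjusted p under 0.05). The lower one was Rps4l, which passed the filter on low values only through wt proB, so its call had to be a difference. Over all 11110 genes tested, 8.15% were called higher and 10% lower, against 45.7% and 1.23% of the members. The median change of the members was 0.81 on the log2(FPKM + 1) scale, against -0.02 for all genes. Those higher included 16 of the 30 small subunit core members and 20 of the 46 large subunit ones, with median changes of 0.83 and 0.79 over each set. Every B-ALL library lay above both wt proB libraries for 71 of the 81 members, as it did for 23.5% of all genes tested, and below them for 2, Rpl3l and Rps4l (24.7% of all genes).

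The count depended on which wt proB library was in the fit. Without the second, limma called 0 members higher (28 at an unadjusted p under 0.05) of 61 genes in all, with a median member change of 0.48. Without the first, it called 21 of 123 genes in all, with a median of 1.11. A fit with 1 wt proB library assumes that it varies like the other groups. The count was 3 without mouse 686, 9 without mouse 760, 12 after quantile normalization and 22 after rescaling each library to the same total (TPM). The rescaling also moved the median of all genes from -0.02 to -0.22 and that of the members to 0.61. The myeloid and stroma markers, and the plasmacytoid dendritic cell markers other than Ly6d, summed higher in both wt proB libraries than in any B-ALL library. The NK and plasma cell markers summed lower there than in any B-ALL library, and the red cell markers lower than in mice 713 and 760. The part of these sets in the difference was not tested.

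**Figure D2:**
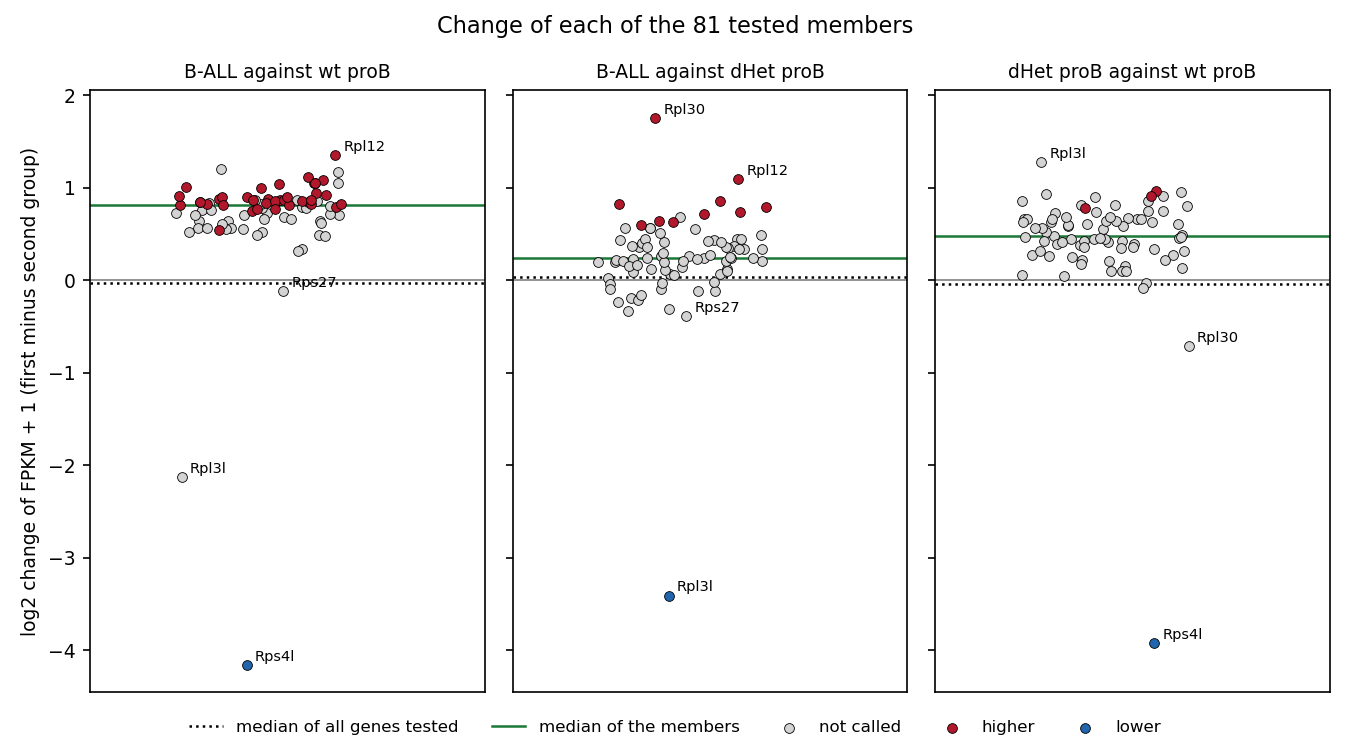
Change of each of the 81 tested members (log2 of FPKM + 1, first minus second group) in the 3 comparisons, spread sideways for visibility; red and blue points passed the test, grey did not. The members' median (green) was 0.81, 0.25 and 0.48, against -0.02, 0.04 and -0.04 for all genes tested (dotted).

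Among the members with the largest rises were Rpl12, Rps12, Rps18 and Rps10. Rpl12, which sits at the base of the stalk that recruits elongation factors, had a median of 357 FPKM in B-ALL (317 to 394), 146, 205 and 151 in dHet proB against 160 and 119 in wt proB. The 6 B-ALL libraries lay above all proB libraries without overlap. Its change from wt proB was 1.35 ± 0.21 (SE, adjusted p = 0.0050). Rps12, a small subunit head protein, had a median of 379 FPKM in B-ALL (299.6 to 420.5), 364, 330 and 270.5 in dHet proB against 171 and 169 in wt proB. The wt proB libraries lay close together and below all others, the dHet proB values overlapped with B-ALL, and the change was 1.12 ± 0.18 (adjusted p = 0.0055). Rps18 and Rps10 rose by 1.08 and 1.05. None of these 4 was called without the second wt proB library.

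Each functional group held members that rose and members that were not called. Of the 4 stalk proteins, Rplp0 (1.00), Rplp1 (0.86) and Rpl12 rose, and Rplp2 changed by 0.85 with an adjusted p of 0.0513. Of the 5S particle, Rpl5 rose by 1.01 (adjusted p = 0.0077) and Rpl11 changed by 0.65 without a call. Of 14 small subunit head proteins 9 rose (64.3%), with a median of 0.86, and of 8 exit tunnel proteins 2 rose (25%), with a median of 0.74, where 45.7% of all members and 8.15% of all genes tested rose. Of 15 genes mutated in Diamond-Blackfan anemia 5 rose (33.3%, below the share of all members), with a median of 0.80, and 2 of the 4 mutated in T-cell leukemia (Rpl5 and Rpl22; Rpl10 and Rpl11 were not called). Rpsa, the small subunit protein also known as the laminin receptor precursor, rose by 0.91 ± 0.19 (adjusted p = 0.0176).

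B-ALL against dHet proB sets leukemic cells against cultured progenitors with the same Ebf1 and Pax5 genotype. Here 10 of 81 members were higher and 1 was lower. Over all genes 14.5% were higher and 11% lower, so the members' 12.3% and 1.23% did not exceed the background. Their median change was 0.25, against 0.04 for all genes. Every B-ALL library lay above every dHet proB library for 36 members (19.5% of all genes tested) and below for 2, Rpl3l among them (15.5% of all genes). The count of higher members ranged from 3 to 10 when single mice or libraries were left out. It was 3 without mouse 686 or without dHet proB library 1, 4 without dHet proB library 3, 5 without mouse 760, and 6 after rescaling to TPM, which moved the median of all genes to -0.12.

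Rpl30 showed the largest rise among the members. Rpl30, a large subunit protein at the interface between the subunits, had a median of 243 FPKM in B-ALL (175 to 263), 57.7, 106 and 49.9 in dHet proB against 121 and 101 in wt proB. The dHet proB values were the lowest, with its second library at the level of wt proB. The change from dHet proB was 1.76 ± 0.28 (SE, adjusted p = 0.0052), and it was called under each of the 20 other settings tried. Rpl12 rose by 1.10 ± 0.19 (adjusted p = 0.0070) and was likewise called under each of them.

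The other rises were smaller. Rpl26, a protein near the tunnel exit, rose by 0.86 (adjusted p = 0.0272) and Rpl38, known for the selective translation of Hox mRNAs, by 0.83 (adjusted p = 0.0457). Rpl34 rose by 0.79 ± 0.16 (adjusted p = 0.0124). Rpl38 lost its call under 12 of 20 other settings and Rpl26 under 7, while Rpl34 lost it under 3, though the sum of Rpl34 and its copy Rpl34-ps1 changed by 0.28. Rpl29, Rpl7a, Rpl7l1 and Rpl35a rose by 0.71, 0.64, 0.63 and 0.60.

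dHet proB against wt proB sets cultured fetal liver cells against sorted bone marrow cells. Of 81 members 3 were higher (3.7%) and 1, Rps4l, was lower (1.23%), against 2.18% and 6.5% of all genes. Rps4l passed the filter on low values only through wt proB, so its call had to be a difference. The median change was 0.48, against -0.04 over all genes. Rpl35 rose by 0.97 ± 0.24 (adjusted p = 0.0463), Rps12 by 0.91 ± 0.18 (adjusted p = 0.0182) and Rpl5 by 0.78 ± 0.17 (adjusted p = 0.0306). None of these was called without dHet proB library 1 or without either wt proB library. Every dHet proB library lay above both wt proB libraries for 45 members, as for 18.9% of all genes tested, and below for 1, Rps4l (24.1% of all genes). The 3 comparisons share their samples in pairs and are not independent.

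To ask which members departed from the rest, each library was also scaled to its core median before the same limma fit. Against dHet proB, Rpl30 (1.38, adjusted p = 0.00931) and Rpl12 (0.72, adjusted p = 0.0323) were higher in B-ALL than the family. Rpl3l (-3.62), Rpl22l1 (-0.68) and Rpl35 (-0.58, adjusted p = 0.0499) were among the members that were lower. Against wt proB limma called no member higher than the family (1 at an unadjusted p under 0.05), and Rps4l (-4.67), Rpl3l (-2.70) and Rps27 (-0.88, adjusted p = 0.0471) were lower. Between dHet and wt proB, Rpl30 (-1.10, adjusted p = 0.0453) and Rps4l were lower. Rps4l passed the filter only through wt proB, so its calls here had to be differences. The scaling also shifted genes outside the family. From wt proB to B-ALL, 4308 of 11280 genes tested were called lower, against 1112 of 11110 unscaled. From dHet proB to B-ALL 1585 were called lower (1218 unscaled), and from wt to dHet proB 1183 (722 unscaled). The adjustment ran over all these genes. Whether the narrow calls of Rps27, Rpl35 and Rpl30 (dHet against wt proB) hold with members alone adjusted was not tested.

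Rpl35 was at its highest in dHet proB. Rpl35, at the tunnel exit, had a median of 1890 FPKM in B-ALL (1752 to 2056), 2423, 2000 and 2165 in dHet proB against 1361 and 922 in wt proB. The dHet proB values overlapped with B-ALL, and both wt proB values lay below every other library.

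**Figure D3:**
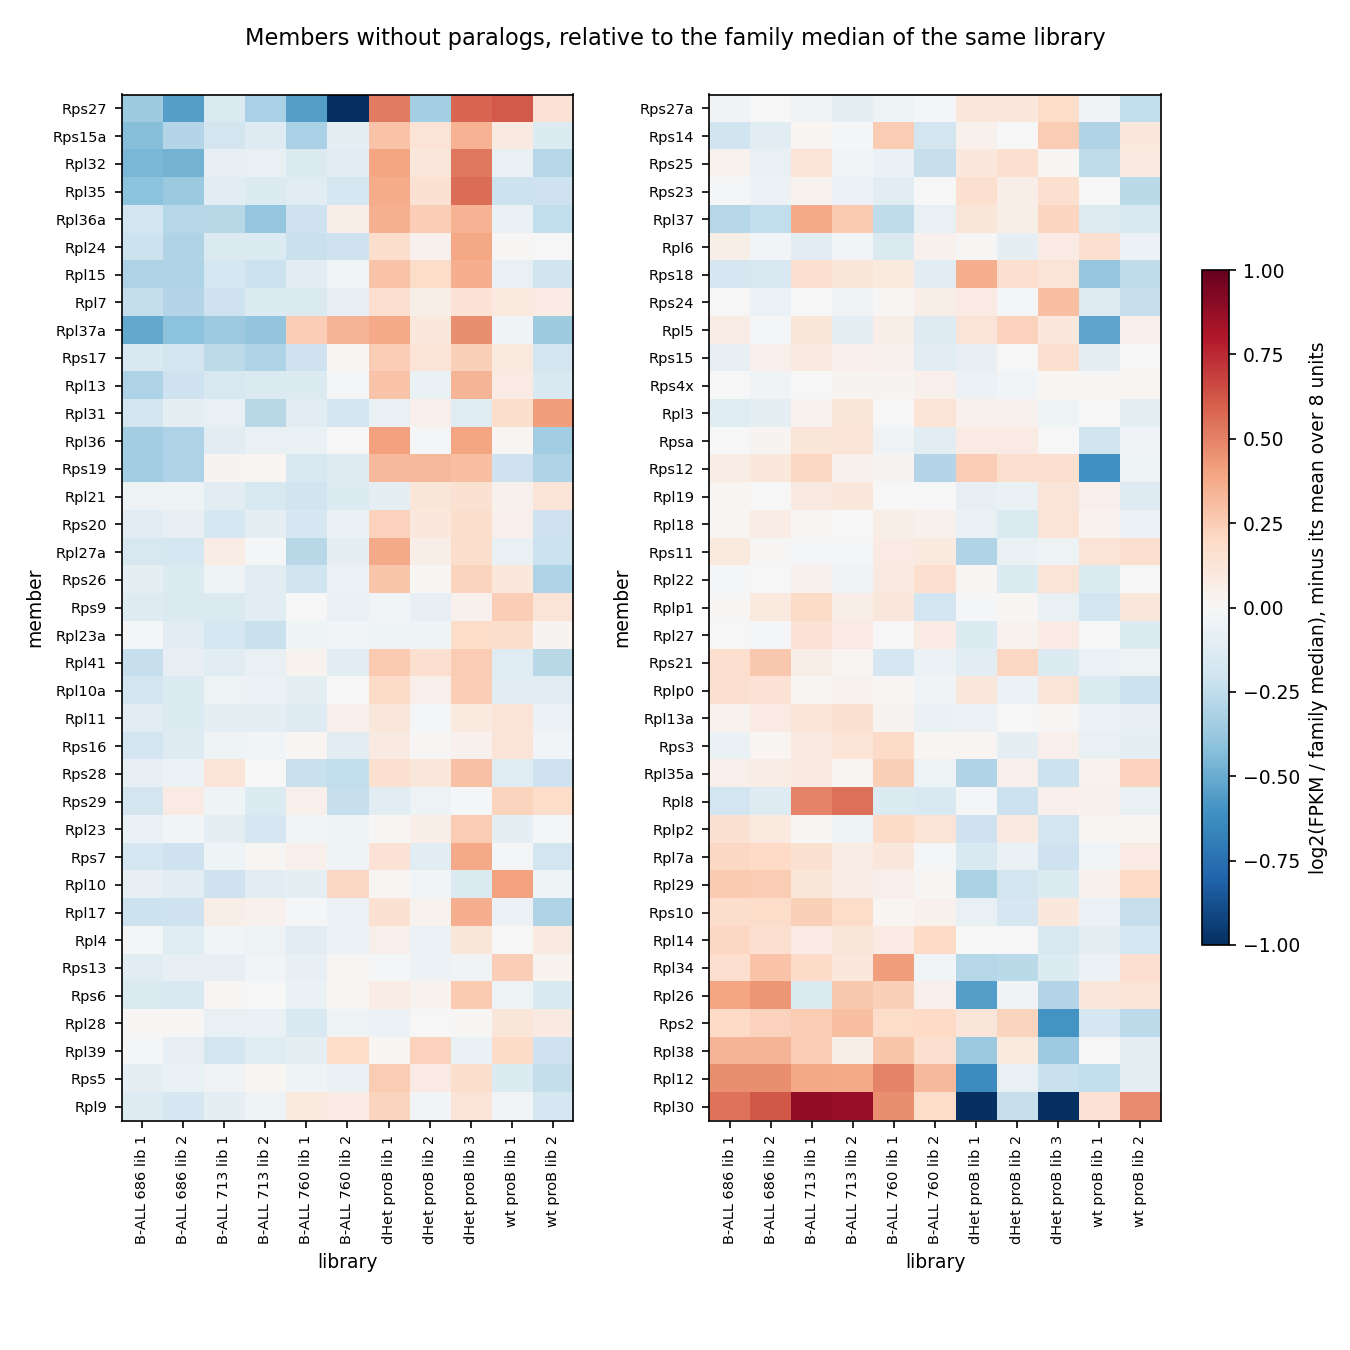
Core members (rows, 74 of the 76) in each library (columns), as log2 of FPKM over the core median of the library, less its mean over the 8 units; rows run from members relatively lowest in B-ALL (top left) to highest (bottom right), and colours saturate at -1 and 1. Most cells are pale; Rps27 and Rpl30 at the 2 ends, and Rpl12 and Rpl35 near them, stand out.

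**Figure D4:**
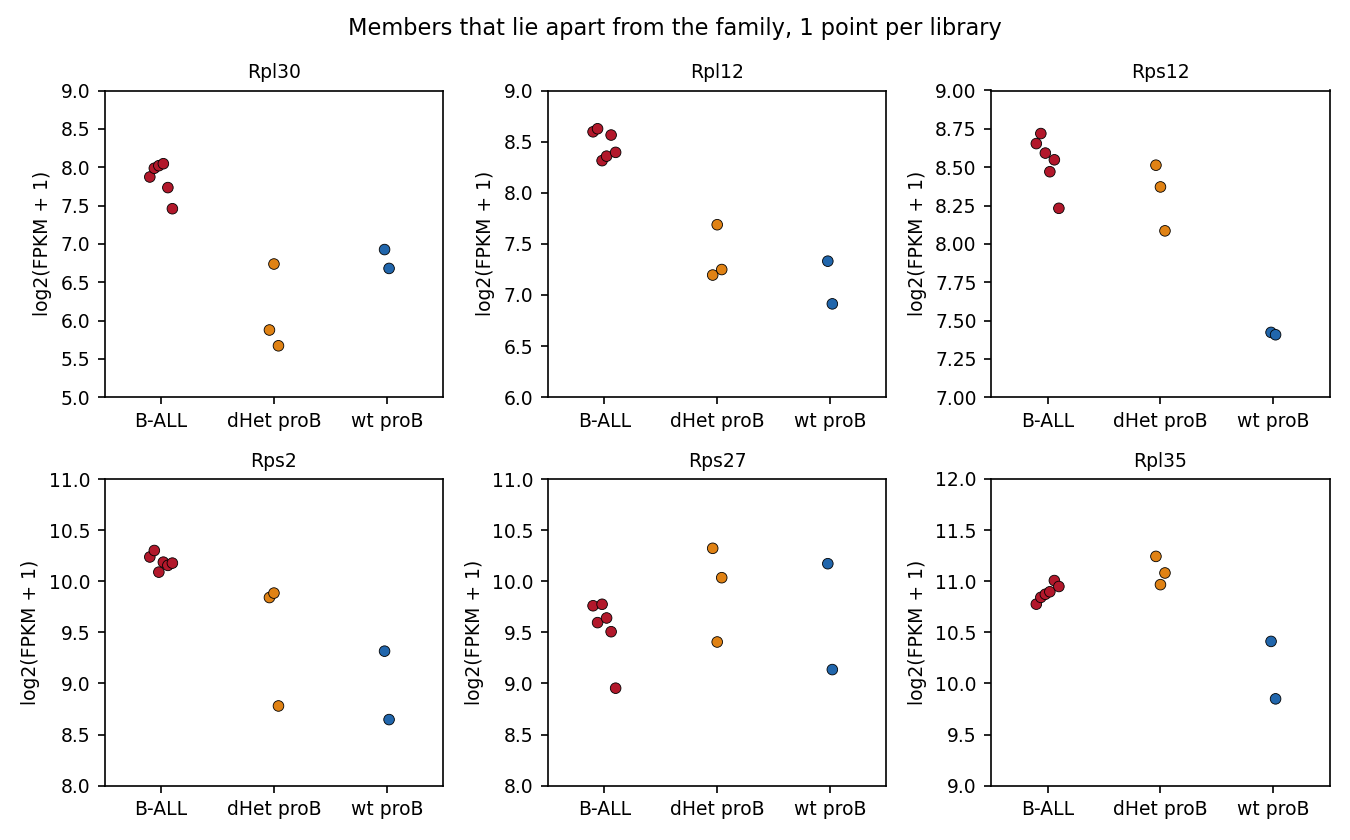
Level (log2 of FPKM + 1) of 6 core members, 1 point per library, by group; the axes do not start at 0. Rpl30 and Rpl12 are higher in all 6 B-ALL libraries than in any proB library, Rps12 is low in both wt proB libraries, 1 dHet proB library is low in Rps2, and Rps27 overlaps between all groups.

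Rps2, a protein of the mRNA entry channel, varied within the dHet proB group. Its median was 1161 FPKM in B-ALL (1088 to 1260), and it was at 916, 944 and 438 in dHet proB against 636 and 400 in wt proB. Library 3 of dHet proB lay at the wt proB level. Its change from wt proB to B-ALL was 1.21 ± 0.36 (adjusted p = 0.0532), the second largest of all members and not called.

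Leaving aside Rps4l, described next, Rpl3l differed most between groups among the paralogs tested. Rpl3l is a muscle paralog of Rpl3, which forms part of the peptidyl transferase center region. Its FPKM values were 0.363 and 0.235 for mouse 686, 5.18 and 5.72 for mouse 713, and 0.474 and 0.257 for mouse 760. It was at 51.7, 10.3 and 21.8 in dHet proB against 8.71 and 8.96 in wt proB. All B-ALL libraries lay below all proB libraries, and mouse 713 lay well above the other 2 mice. B-ALL was lower than dHet proB by a log2 change of -3.41 ± 0.72 (adjusted p = 0.0134), called under each of the 20 other settings. The change from wt proB was -2.13 ± 0.80 (adjusted p = 0.1006). Its transcripts share no 50-base word with another annotated gene. The neighbouring genes Ndufb10 (215 to 313 FPKM) and Msrb1 (27.7 to 49.1) showed no such range. Rpl3l amounted to 0.0370% to 0.891% of Rpl3 in B-ALL, 9.53%, 1.98% and 5.39% in dHet proB against 1.95% and 3.17% in wt proB.

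Rps4l was seen mainly in wt proB. It was at 28.3 and 11.3 FPKM there, at 0 to 0.269 in the B-ALL libraries and at 0.776, 0 and 0.109 in dHet proB. RefSeq lists it as a transcribed pseudogene inside Tmtc1, and Tmtc1 itself was at most 0.587 FPKM. It passed the filter on low values only through the 2 wt proB libraries, so its calls (-4.16 from wt proB to B-ALL, -3.92 to dHet proB) had to be differences and are given as values.

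Rpl22l1 exceeded its partner Rpl22 in all 11 libraries. Rpl22 is needed for the survival of developing T cells and is known to hold down Rpl22l1. Rpl22 had a median of 36.5 FPKM in B-ALL (32.0 to 39.2), 29.6, 25.6 and 25.2 in dHet proB against 22.3 and 16.6 in wt proB. Rpl22l1 had a median of 119 in B-ALL (96.3 to 127), 168, 158 and 107 in dHet proB against 103 and 58.0 in wt proB. The paralog was 3.01 to 3.48 times its partner in B-ALL, 5.67, 6.17 and 4.25 times in dHet proB, and 4.61 and 3.48 times in wt proB. B-ALL mice and dHet proB did not overlap in this ratio (exact permutation p = 0.1, the smallest possible).

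Rps27l, a paralog of Rps27 that p53 induces, had its highest value, 543 FPKM, in B-ALL, and Rps27, at 1279, in dHet proB. Rps27l had a median of 414 FPKM in B-ALL (351 to 543), 246, 486 and 234 in dHet proB against 225 and 158 in wt proB. Rps27 had a median of 785 in B-ALL (495 to 875), 1279, 677 and 1048 in dHet proB against 1152 and 561 in wt proB. Rps27l therefore amounted to 41.0% to 79.9% of Rps27 in B-ALL, 19.2%, 71.8% and 22.3% in dHet proB against 19.6% and 28.1% in wt proB. Library 2 of dHet proB stood with the B-ALL libraries. The change of Rps27l from wt proB to B-ALL was 1.18 ± 0.35 and not called (adjusted p = 0.0520).

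Rpl7l1, a paralog of Rpl7 with a role in rRNA processing, was called against both proB groups. It had a median of 95.2 FPKM in B-ALL (89.4 to 102), 53.8, 60.3 and 69.6 in dHet proB against 67.8 and 61.3 in wt proB. It rose by 0.63 ± 0.13 from dHet proB (adjusted p = 0.0141) and 0.55 ± 0.15 from wt proB (adjusted p = 0.0404). The second call was lost under 10 of 20 other settings with its direction kept, and scaling to the core median turned it to -0.21 without a call. The first call was lost under 3, rescaling to TPM among them. Rpl39l, a testis paralog of Rpl39, was at 0 to 0.574 FPKM with its highest value in wt proB, and Rpl10l, a testis paralog of Rpl10, was listed at 0 in every library. The 12 exact permutation tests of paralog over partner (4 paralogs in 3 comparisons) gave adjusted p-values of 0.4 to 1.

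**Figure D5:**
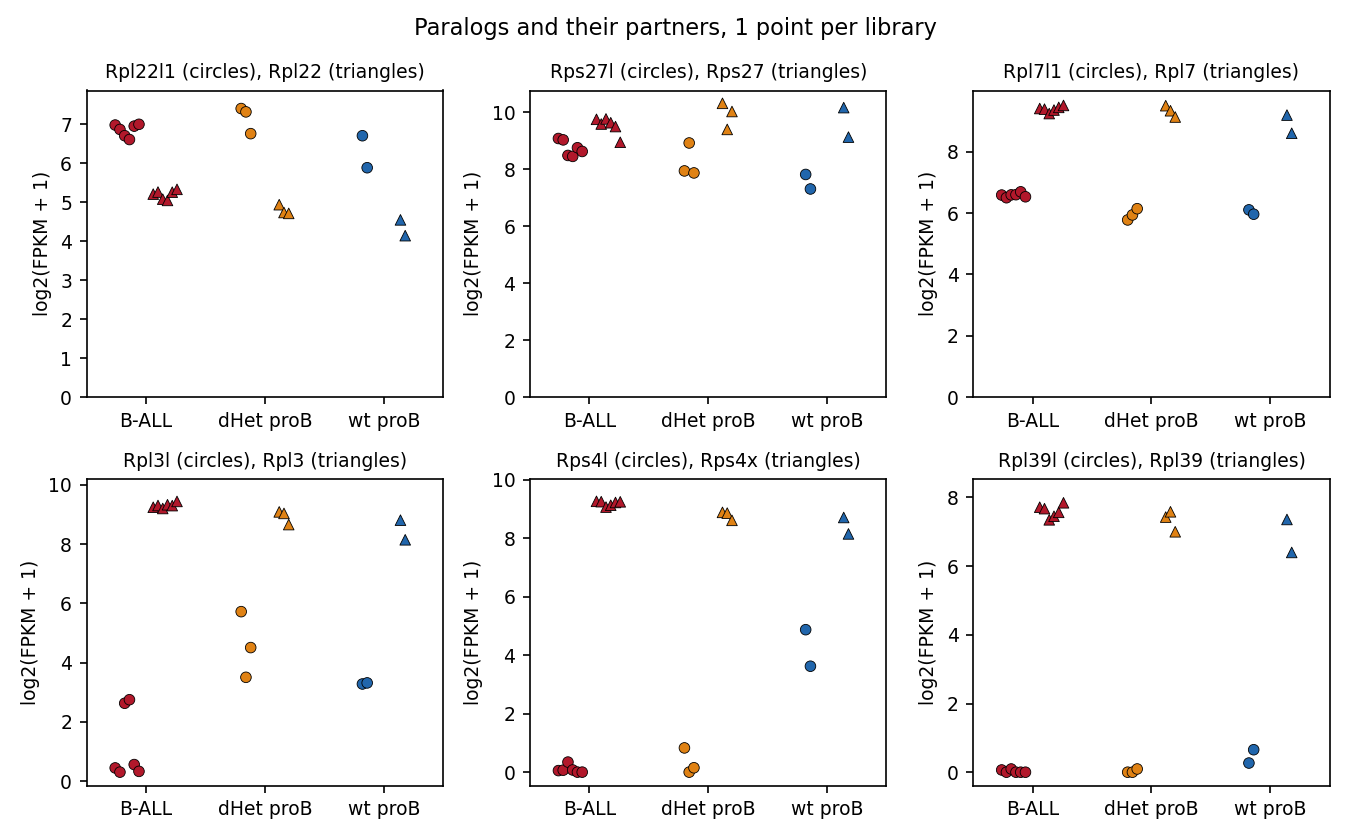
Level (log2 of FPKM + 1, vertical axis) of 6 paralogs (circles) and their partners (triangles), 1 point per library, by group. Rpl22l1 lies above Rpl22 in all 11 libraries, Rpl3l is lowest in B-ALL mice 686 and 760, and Rps4l lies above 10 FPKM in wt proB only.

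Sequence shared with copies limits what the level of a single member means. Of the 82 members matched to GENCODE M21 transcripts, 79 shared at least one 50-base word with another gene, 21 shared more than 50% of their words, and the median was 34.0%. How fragments from several sites were assigned is not given in the sources used here. Rpl36a shared the most, 85.5%, while Rpl12 shared 49.0% with 14 other genes, all pseudogenes, and Rpl30 22.5% with 16. The levels of such members are uncertain to the extent that fragments were divided among copies. The file lists 9 annotated copies of core members, and their summed FPKM was 2.33% to 3.34% of that of the members in B-ALL, 3.56% to 4.20% in dHet proB and 3.72% to 3.75% in wt proB.

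Rps27 and Rpl34 were looked at more closely after their values were seen. In mouse 760, Rps27 was at 726 and 495 FPKM in the 2 libraries while its copy Rps27rt was at 727 and 922, and their sums, 1453 and 1417, were 2.49% apart. In mouse 686, Rps27 was at 866 and 772 and Rps27rt at 389 and 551, with sums of 1255 and 1323. In each of the 3 mice the library with more Rps27 had less Rps27rt. Rps27 and Rps27rt summed to 2297, 1638 and 2167 FPKM in dHet proB against 1983 and 1112 in wt proB, so the sum of 1255 to 1525 in the 6 B-ALL libraries was below every dHet proB library.
In mouse 760, Rpl34 was at 840 and 619 FPKM and its copy Rpl34-ps1 at 161 and 307, with sums of 1001 and 926. In mouse 713 both genes were higher in library 1, with values 2.40% apart for Rpl34 and 2.68% apart for the copy. The sum of Rpl34 and Rpl34-ps1 was 875 to 1001 in B-ALL and 834, 799 and 702 in dHet proB, which did not overlap. From dHet proB to B-ALL the sum was 1.21-fold higher, against 1.73-fold for Rpl34 alone, and Rpl34-ps1 changed by -0.74. Rps15a, at 11.2 to 26.3 FPKM, was listed below its copy Rps15a-ps4 in every library (34.1 to 73.9).

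Some ribosomal proteins have symbols that the rule leaves out. Of these, Gnb2l1, which encodes the small subunit scaffold Rack1, rose by 1.08 from wt proB and 0.64 from dHet proB to B-ALL, and Rpl36al rose by 0.61 from dHet proB. Fau and Rps3a1 were not called in any comparison.

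Few members differed among the 3 leukemias. Of 81 members, 1 differed among the mice (limma F test over libraries, adjusted p under 0.05), against 22.3% of 11293 genes. That member was Rpl3l, higher in mouse 713 than in the mean of the other 2 by 2.28 (adjusted p = 0.0190). It was not called without either library of mouse 713 or of mouse 760, and 3 members were called without wt proB library 1 and 3 without wt proB library 2. Against the mean of the other 2 mice, the members' median was -0.14 in mouse 713, 0.11 in 686 and 0.024 in 760. The same medians over all genes were not taken. The F test sets mice against the spread between libraries of one mouse, not between animals. Rpl8 and Rpl37a, picked after their values were seen, also set 1 mouse apart without passing the test: Rpl8 was at 1077 and 1155 FPKM in mouse 713 and at 755 to 820 in the others (adjusted p = 0.179), and Rpl37a at 413 and 440 in mouse 760 and at 247 to 280 in the others (adjusted p = 0.0956).

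Genes that serve ribosome production gave other counts than the members. Of 25 ribosome assembly factors, 18 (72%) rose from dHet proB to B-ALL, with a median of 0.84, where 14.5% of all genes rose and the members' median was 0.25. Grwd1 (1.89), a chaperone of Rpl3, and Nle1 (1.81), which acts in large subunit maturation, rose most. From wt proB to B-ALL 9 of the 25 rose (36%, against 8.15% of all genes), with a median of 0.71, led by Nle1 (1.79) and Heatr3 (1.62), which carries Rpl5 into the nucleus. Between dHet and wt proB limma called none of the 25 (1 at an unadjusted p under 0.05, median -0.04), where the members' median was 0.48.

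RNA polymerase I transcribes the rRNA precursor. Of 13 tested genes, 6 (46.2%, against 14.5% of all genes) rose from dHet proB to B-ALL, led by Polr1b (2.08) and Polr1a (1.65), and Znrd1 fell by 0.73. From wt proB, Cd3eap (1.40) and Polr1c (0.73) rose, which is 15.4% against 8.15% of all genes, and Znrd1 fell by 1.16. Cd3eap was not called with library 2 of each mouse alone (adjusted p = 0.0537). Between the proB groups limma called none of the 13, and none had an unadjusted p under 0.05.

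Other mRNAs with a TOP motif gave mixed results. Of 19, 7 (36.8%, against 8.15% of all genes) rose from wt proB to B-ALL, led by the nucleolar protein Npm1 (1.36) and the poly(A)-binding protein Pabpc1 (1.11), and Eif4a2 fell by 1.28. From dHet proB 5 rose (26.3%, against 14.5% of all genes), led by Eef1d (1.28) and Npm1 (1.27). Between dHet and wt proB, Eef1b2 rose by 0.72 and Eif4a2 fell by 1.56.

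Regulators gave calls in both directions. Of 15 genes of the mTORC1 and TOP control list, 3 rose and 2 fell from dHet proB to B-ALL (Larp4 0.76 and Eif4g1 0.75, Eif4ebp2 -0.89 and Tsc1 -0.60), which is 20% and 13.3% against 14.5% and 11% of all genes. From wt proB, Eif4g1 rose by 0.90 and Rps6kb2 fell by 0.65, and Eif4ebp2 rose by 0.78 from wt to dHet proB. Of 8 transcriptional regulators linked to ribosomal protein genes, Yy1 (-0.70) and Tbpl1 (-0.54) fell from dHet proB to B-ALL, and limma called none in the other comparisons, with 1 at an unadjusted p under 0.05 from wt proB to B-ALL. Myc was also on the list and was not called in any comparison. It was at 203 to 445 FPKM in B-ALL, 9.39, 42.3 and 290 in dHet proB against 82.5 and 68.4 in wt proB. Its B-ALL libraries lay above both wt proB libraries and overlapped with dHet proB. The fall of Yy1 rested on library 1 of each mouse: Yy1 was at 6.00, 6.78 and 9.41 FPKM there, at 16.4, 21.1 and 15.5 in library 2 of the same mice, and at 15.5, 23.0 and 19.8 in dHet proB. With library 2 alone Yy1 changed by -0.12 (adjusted p = 0.692), and Larp4 lost its call too (0.58, adjusted p = 0.0997). Eif4ebp2 was also lower in library 1 of each mouse (40.0 to 45.5 FPKM) than in library 2 (64.6 to 70.0). Both lay below dHet proB (91.8 to 106). Of 6 genes of the p53 pathway, Bbc3 (-3.19), Cdkn1a (-2.97) and Mdm2 (-0.64) fell from dHet proB to B-ALL (50%, against 11% of all genes), and Mdm2 fell by 0.94 from wt proB. Cdkn1a, the cell cycle inhibitor p21, was at 1.11 to 2.58 FPKM in mice 686 and 760, 22.1 and 23.4 in mouse 713, 22.9, 56.3 and 59.7 in dHet proB against 37.9 and 36.5 in wt proB, so that mouse 713 lay apart for it as for Rpl3l.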

How the data were processed

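Per the submitters' processing notes, the authors' tools included Cufflinks and Cuffnorm (both 2.2.1), Cuffdiff, STAR 2.5.3a and bcl2fastq (0.3.1 and 2.20.0.422), with build mm9. The deposited values are FPKM per gene, 1 file per library. Not given in the sources used here are the annotation, the scaling, the strand setting and the handling of fragments with several sites.

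Values were analysed as log2(FPKM + 1) with limma 3.58.1 (R 4.3.3, trend, two-sided, Benjamini-Hochberg at 0.05 over all genes tested). One fit held 8 units: 3 mice, each the mean of 2 libraries, 3 dHet proB and 2 wt proB libraries. Genes needed 1 FPKM in 2 units, which 81 members met, Rps4l only through wt proB. Fold changes understate low genes. Shares, cytosolic to mitochondrial ratios and paralog ratios were compared with exact permutation tests (SciPy 1.17.1). The limma script was tested on simulated data. Same-numbered libraries of the 3 mice deviated together (correlations of 0.135, 0.207 and 0.640), so the test among mice was repeated with a replicate block.

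The members and lists were chosen with earlier results of these data known. Named were, per comparison, the 5 called members with the largest change each way and the 3 farthest from the members' median on each side. Also named were paralogs and partners, stalk and 5S proteins, Rpsa, the 5 highest members, members at 0, and up to 2 called genes per direction of other lists. Further members are said to be picked after their values were seen, or are given within a group's count. Alternatives were the pseudocount, filter, 4 scalings, trend, mouse as a random effect, single libraries of each mouse, a replicate block, the 2 groups alone and leaving out each mouse or library.

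Shared 50-base words were counted in GENCODE M21 transcripts, and promoters came from RefSeq. Some genes that the naming rule would include are not reported here.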

Additional observations from a re-analysis of the deposited data

Results flagged for a closer look

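The share, the cytosolic to mitochondrial ratio and the named members, 36 values in all, were checked for a B-ALL library that stands far from the other 5, and 2 were found. Chance flags about 1 in 20 such groups, and the 2 libraries of a mouse are not independent. Rps14, a small subunit protein, was at 2871 FPKM in library 1 of mouse 760, against 2124 to 2391 in the other B-ALL libraries. Rps4l was at 0.269 FPKM in library 1 of mouse 713, against 0 to 0.0522 in the others, all far below the wt proB level.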

How the results depend on the processing

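The direction of the members' median was kept in all 3 comparisons under every setting but scaling to the family median, which takes the common change out by construction and left medians of 0.045 (B-ALL against wt proB), -0.13 (B-ALL against dHet proB) and 0.087 (dHet against wt proB). The FPKM values give no counts, so precision rests on the number of libraries alone. Rescaling to TPM lowered the share of higher among all called genes from 44.9% to 23.8% (B-ALL against wt proB) and from 57.0% to 38.8% (B-ALL against dHet proB), and quantile normalization took it to 46.3% in the latter and from 25.1% to 43.7% in dHet against wt proB.

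For B-ALL against wt proB, 37 members were higher and 1 lower. The higher count was 21 with no filter on low values, 22 after TPM, 12 after quantile normalization, 0 after scaling to the family median and 0 to 43 when 1 mouse or library was left out. The lower count was 2 with no filter, 3 after family scaling and 0 to 2 with 1 left out, with Rps4l no longer tested when either wt proB library was missing. Leaving out 1 mouse or library gave medians of 0.48 to 1.11. For B-ALL against dHet proB, with 10 higher and 1 lower, the higher count was 5 with no filter, 6 after TPM, 6 after quantile normalization, 2 after family scaling and 3 to 10 with 1 left out, and the lower count was 4 after family scaling. For dHet against wt proB, with 3 higher and 1 lower, the higher count was 5 after TPM, 6 after quantile normalization, 0 after family scaling, 5 without the mean-variance trend, 11 with the mouse as a random effect, 1 with the 2 groups alone and 0 to 3 with 1 left out. The lower count was 2 after family scaling and 0 to 2 with 1 left out, and the median was 0.20 to 0.80 with 1 left out. The number that differed among mice was 0 to 3 with 1 library left out. The causes of these shifts were not tested, the smaller number of samples after leaving 1 out included.

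Across conditions the replicate numbers of the labels do not pair the libraries. Over 20 same-numbered pairs, those among the B-ALL mice included, the correlation of deviations ran from -0.134 to 0.640, with 9 above 0.1. Between conditions the highest was 0.114, for mouse 686 with wt proB. With a replicate block and the mouse as a random effect, 49, 5 and 6 members were higher in the 3 comparisons in turn. The block turned Rpl7 (-0.026) and Rps18 (-0.00501) from dHet proB to B-ALL, neither called. Only dHet proB has a library 3, so these changes equal those found without that library. For the test among mice, where the numbers do pair the libraries, a block over the B-ALL library numbers, added after the data were seen, left 1 member called, Rpl3l (adjusted p = 0.0323), against 19.7% of all genes.

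Family scaling turned small changes negative that are then relative to the family. From wt proB to B-ALL these were Rpl10 (-0.25), Rpl11 (-0.12), Rpl22l1 (-0.21), Rpl32 (-0.043), Rpl35 (-0.0094), Rpl39 (-0.043), Rpl7 (-0.27) and Rpl7l1 (-0.21). From dHet proB to B-ALL these were Rpl10 (-0.014), Rpl11 (-0.15), Rpl3 (-0.00050), Rpl39 (-0.11), Rpl5 (-0.15), Rpl7 (-0.31), Rplp0 (-0.0025), Rps14 (-0.14), Rps18 (-0.23) and Rpsa (-0.031). From wt to dHet proB these were Rpl10 (-0.23), Rpl12 (-0.14), Rplp2 (-0.12) and Rps27 (-0.13). From dHet proB to B-ALL, quantile normalization turned Rpl11 (-0.036), Rpl7 (-0.22), Rps14 (-0.0031) and Rps18 (-0.097), and TPM turned Rpl7 (-0.11) and Rps18 (-0.032).

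With library 1 of each mouse only, Rps27 changed by 0.027 from wt proB to B-ALL, and with 1 mouse or library left out by -0.63 to 0.40. From dHet proB to B-ALL, leaving out 1 gave -0.026 to 0.16 for Rpl7, -0.00501 to 0.29 for Rps18 and -0.40 to 0.015 for Rps4l. From wt to dHet proB it gave -0.35 to 0.67 for Rpl10, -0.022 to 0.94 for Rpl39, -0.18 to 0.0074 for Rpl7l1, -0.0038 to 0.56 for Rplp2 and -0.25 to 0.79 for Rps27. The share of B-ALL over dHet proB ran from -0.00604 to 0.11, the ratio of Rpl7l1 to Rpl7 of B-ALL over wt proB from -0.17 to 0.28, and the ratio of Rps27l to Rps27 of dHet over wt proB from -0.18 to 0.77.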
